A study of Mus musculus with 5 samples.

Results

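The genes of neutrophil recruitment and activation described here were Lta4h, Csf3r and Vcam1, 3 of the 1457 genes in the deposited tables of mouse pancreas after caerulein. They were chosen by name for their roles in leukotriene B4 synthesis, granulocyte colony-stimulating factor (G-CSF) reception and endothelial adhesion, with their values across all 5 libraries already known. Their own differences are therefore given as descriptions, with no test read from them.

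Neutrophils leave the blood in steps: attractants such as the lipid leukotriene B4 draw them, adhesion molecules on activated endothelium hold them, and the NADPH oxidase they assemble releases superoxide. LTA4H, the leukotriene A4 hydrolase, performs the last step of leukotriene B4 synthesis and is made in many cell types. CSF3R is the receptor for G-CSF, which drives the production and release of neutrophils, and is found mainly on neutrophils and their precursors and on some monocytes. VCAM1 is displayed by activated endothelium and by some stromal cells and macrophages, and binds leukocyte integrins, chiefly the α4 integrins of monocytes and lymphocytes. Infiltration of the gland by neutrophils and monocytes is a hallmark of caerulein pancreatitis.

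Caerulein is a peptide analogue of cholecystokinin that overstimulates acinar cells and causes acute pancreatitis. Whole pancreata came from female C57BL/6 mice aged 8 weeks: wild type given saline (1 library, replicate 1), wild type given caerulein (2 libraries, replicates 1 and 2) and miR-21-/- given caerulein (2 libraries, replicates 1 and 3). Caerulein was injected intraperitoneally at 50 µg/kg on a schedule the labels write as 8-hourly, and the pancreas was removed 24 h from the first dose. There is 1 saline library and it is wild type, so a knockout value against saline differs in genotype as well as treatment. The labels give neither the construction of the miR-21-/- allele nor whether each library is a separate mouse, so the spread between libraries, and any p-value from it, may be technical. The deletion itself was not checked here.

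The microRNA that the knockout label names is shown first, since its seed is the part that pairs with target transcripts. The mature strand, from RefSeq on GRCm38.p6, lies on the minus strand at chr11:86584120-86584141. Capitals mark the seed, bases 2 to 8.
mmu-miR-21a-5p: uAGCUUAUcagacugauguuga
The reverse complement of that seed in DNA letters, ATAAGCT, was searched on the transcript strand in the longest annotated 3' UTR of each gene (GENCODE M21). Neither it nor the shorter TAAGCT, which it contains, occurred in the 94 bases of Lta4h, the 602 of Csf3r or the 1404 of Vcam1. Among genes with a 3' UTR within 25% of those lengths, ATAAGCT occurred in 0.903%, 2.65% and 5.88%, and TAAGCT in 2.06%, 11% and 24.8%. Their absence says only that these letters are not in these windows.

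Lta4h and Csf3r, both listed at the lowest value in the saline library, are shown with their promoter windows, 250 bases before to 50 after the annotated start, from RefSeq on GRCm38.p6. The Csf3r window is the plus strand of chr4:126024409-126024708 and the Lta4h window the plus strand of chr10:93453146-93453445. Of the 3 members, 2 were matched in the promoter table; Vcam1 was not. Capitals mark the match to GAGGAA, an ETS core of the kind bound by PU.1, a factor of myeloid cells.
Csf3r: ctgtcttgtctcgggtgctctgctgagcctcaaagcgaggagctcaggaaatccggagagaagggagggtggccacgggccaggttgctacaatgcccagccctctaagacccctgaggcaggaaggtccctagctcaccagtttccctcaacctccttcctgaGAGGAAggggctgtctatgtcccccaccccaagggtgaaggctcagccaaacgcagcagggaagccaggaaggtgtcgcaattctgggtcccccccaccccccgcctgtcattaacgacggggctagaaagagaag
Lta4h: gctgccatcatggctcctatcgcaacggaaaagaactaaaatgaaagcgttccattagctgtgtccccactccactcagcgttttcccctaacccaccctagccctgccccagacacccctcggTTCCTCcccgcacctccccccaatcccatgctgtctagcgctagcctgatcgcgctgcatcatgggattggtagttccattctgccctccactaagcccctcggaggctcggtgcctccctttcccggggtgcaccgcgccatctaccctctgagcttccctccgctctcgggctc
Each window held 1 match, on the plus strand starting 86 bases before the start site in Csf3r, and on the minus strand (TTCCTC as printed) with its first printed base 126 bases before it in Lta4h. GAGGAA was present on either strand in 28.3% of 32851 promoter windows of the same length. Neither window held TATAAA (present in 13.6% of windows), TTNNGCAA, a C/EBP core (10.8%), TGANTCA, the AP-1 site (7.81%), or the NF-kB consensus (4.51%). A match is a description of the letters and not a bound site.

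Values are printed as deposited. Their unit is not stated, so they are compared between libraries for a gene and not between genes. The lowest value listed is 0.01, and no fold is given against it. Log2 differences are of log2(value + 1), which understates changes of low genes, and carry the standard error (SE) of a limma model over the 1429 genes that reached 1 in 2 or more libraries. All 3 members passed that filter. A gene is called at a Benjamini-Hochberg adjusted p under 0.05 in that fit. Rows stand in falling order of how far wild-type caerulein exceeded saline, with Lta4h in row 50, Csf3r in row 87 and Vcam1 in row 1089. The listed values sum to 2818 in saline and to between 23255 and 38628 after caerulein. Across genes the caerulein libraries were most alike in 2 pairs that cross genotype. Spearman's rho was 0.73 for wild-type replicate 1 with knockout replicate 3, 0.74 for wild-type replicate 2 with knockout replicate 1, and between 0.35 and 0.45 for the other pairs. The labels name no batch.

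Lta4h, the enzyme gene, was the member whose level followed genotype. It was listed at 0.01 in saline, and after caerulein stood at 23.25 (replicate 1) and 16.14 (replicate 2) in wild type and at 6.62 (replicate 1) and 5.28 (replicate 3) in the knockout. Both knockout libraries were below both wild-type libraries, and all 4 were above saline. The wild-type mean was 3.31-fold the knockout mean, and the 4 ratios of a wild-type to a knockout library ran from 2.44 to 4.4. Within a genotype the higher library was 1.44-fold the lower in wild type and 1.25-fold in the knockout, so for Lta4h the genotypes stood further apart than the replicates.

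The log2 difference of Lta4h, knockout minus wild type, was −1.56 (SE 0.83, n = 2 and 2), the 10th lowest of the 1429 genes tested, whose median was 0.10. It ran from −1.81 to −1.31 with a caerulein library left out. In groups of 2 such a move is bounded by the SD between replicates, so the range does not measure steadiness. Limma called 0.0% of genes between the genotypes, and so neither Lta4h nor another member, at the adjusted threshold (0 genes, against 7 at an unadjusted p under 0.05). Those 7 are a smaller share of the genes than 0.05, so the 0 does not show that the genotypes are alike. The SE follows genes of similar level more than the gene's own replicates. It was 0.83 for Lta4h and 0.82 for Csf3r, whose replicate SDs on the log2 scale were 0.29 and 0.88. Both knockout values lay below both wild-type values for 65 genes, 4.55% of those tested. In 11 of those 65, Lta4h included, the wild-type mean was at least 3.31-fold the knockout mean. Lta4h was chosen with this difference known, so nothing is read from its place in that order. Against saline the log2 difference was 4.34 (SE 1.02) in wild type, higher than in 94.5% of genes, and 2.78 (SE 1.02) in the knockout, close to the median gene at 2.80.

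**Figure D1:**
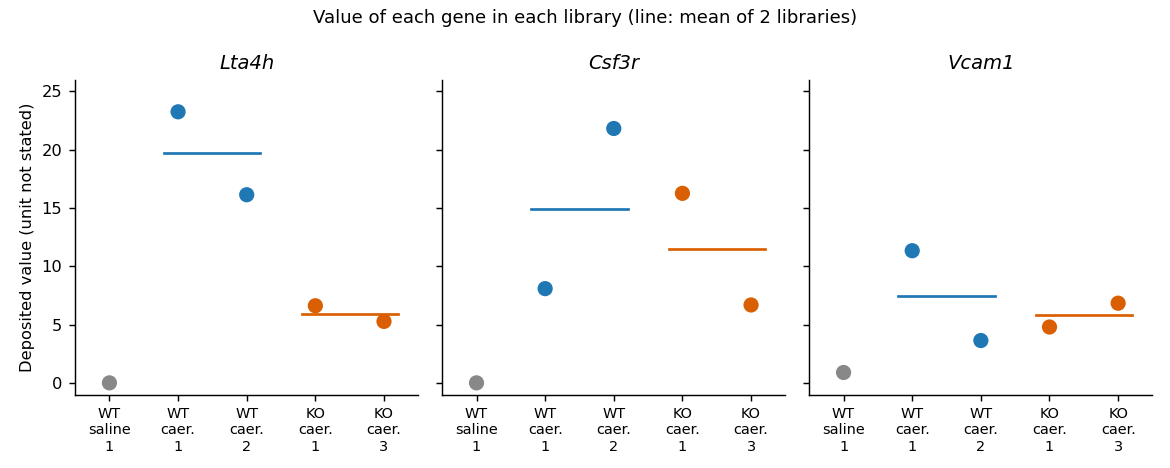
Deposited value (vertical axis, unit not stated) of Lta4h, Csf3r and Vcam1 in each of the 5 libraries; points are libraries (grey WT saline, blue WT caerulein, orange KO caerulein) and lines the mean of 2 libraries. The genotypes separate for Lta4h (23.25 and 16.14 against 6.62 and 5.28) and overlap for Csf3r and Vcam1.

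Csf3r, the receptor gene, varied more within each genotype than between the genotype means. It was listed at 0.01 in saline, and was 8.09 and 21.82 in wild-type replicates 1 and 2 and 16.26 and 6.69 in knockout replicates 1 and 3. The high libraries were wild-type replicate 2 and knockout replicate 1, and the low ones wild-type replicate 1 and knockout replicate 3, the same crossed pairs that were alike across all genes. The part of whatever those pairs share in the Csf3r values was not tested. The higher library was 2.7-fold the lower in wild type and 2.43-fold in the knockout, against 1.3-fold between the genotype means. Its log2 difference between genotypes was −0.32 (SE 0.82). This took both signs with single libraries left out, from −0.99 without wild-type replicate 1 to 0.34 without wild-type replicate 2. Against saline Csf3r differed by 3.83 (SE 1.01) in wild type and 3.51 (SE 1.01) in the knockout, above 88.7% and 79.7% of genes.

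Vcam1, the adhesion gene, had the smallest difference from saline of the members. It was 0.90 in saline, 11.34 and 3.64 in wild-type replicates 1 and 2, and 4.80 and 6.84 in knockout replicates 1 and 3. Each caerulein library was above saline as deposited, by 4.04-fold to 12.6-fold. The means were 8.32-fold saline in wild type and 6.47-fold in the knockout. The genotypes overlapped, with wild-type replicate 1 highest and wild-type replicate 2 lowest. Wild-type replicate 1 and knockout replicate 3 were the high libraries, which were the low ones for Csf3r. The sums of all listed values stood in the same order of libraries as Vcam1, at 38628 and 23255 in wild type and 32770 and 34393 in the knockout; their part in its values was not tested. The log2 difference between genotypes was −0.17 (SE 0.99), with a range of −0.87 to 0.54 over the libraries left out.

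Against saline, Vcam1 differed by 1.99 (SE 1.21) in wild type and 1.83 (SE 1.21) in the knockout, more than only 21.8% and 16.0% of the genes in the table. These differences became −0.68 and −0.92 under quantile normalization and −0.42 and −0.66 when libraries were scaled to equal sums, so the direction for Vcam1 depended on taking the saline values as deposited. Lta4h and Csf3r stayed positive against saline under both scalings. Both were at 0.01 in saline, which scaling to equal sums leaves near 0, so that scaling could hardly turn their sign.

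All 3 members were above saline in all 4 caerulein libraries, as were 87.6% of genes tested. Limma called 2 of the 3, Lta4h and Csf3r, higher in wild type against saline, where 57.3% of all genes were called, and the same 2 in the knockout, where 60.3% were. Both comparisons use the same saline library, and since members and table were chosen with these contrasts in view, nothing is read from the counts. In the knockout comparison leaving out knockout replicate 1 left 0 members called, and leaving out knockout replicate 3 left Csf3r. At equal sums Lta4h also lost its knockout call (limma, Benjamini-Hochberg adjusted p = 0.073). In the wild-type comparison Vcam1 was called as well without wild-type replicate 2 (adjusted p = 0.0286) and with a pseudocount of 0.1 (adjusted p = 0.0425). Under quantile normalization no member was called in either comparison.

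**Figure D2:**
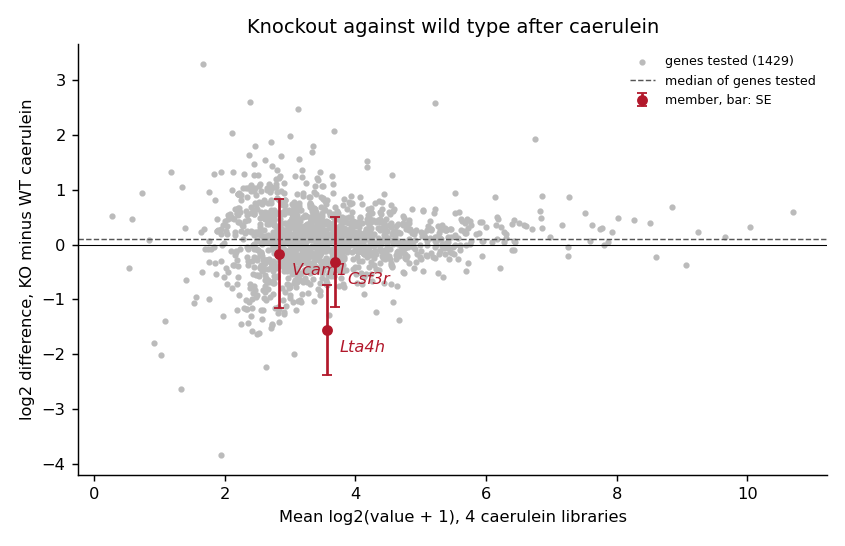
Log2 difference of knockout minus wild type after caerulein (vertical axis) against mean log2(value + 1) of the 4 caerulein libraries (horizontal axis) for the 1429 genes tested (grey), with the 3 members in red and bars of 1 SE. Lta4h lies at −1.56, near the lower edge of the genes of similar level, while Csf3r (−0.32) and Vcam1 (−0.17) lie within the cloud, with the median of all genes at 0.10.

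The rest of each pathway was taken from lists of known genes. Calls against saline in these lists are of the values as deposited, where 57.3% of all genes were called higher in wild type and 60.3% in the knockout. Under quantile normalization no gene of these lists was called, where of all genes tested 0 were called higher in either genotype. At equal sums the calls were of Lta4h (wild type), Csf3r and Rac2 (both genotypes). Of 8 symbols for leukotriene B4 synthesis and receptors, 2 were among the genes analysed. The other was Cyp4f18, a cytochrome P450 that hydroxylates leukotriene B4 in mouse neutrophils. It was 0.01 in saline, 10.52 and 6.26 in wild-type and 11.84 and 5.95 in knockout caerulein libraries. Unlike Lta4h, its genotypes overlapped, and its log2 difference between them was 0.05 (SE 0.91).

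Of 14 genes for G-CSF and related receptors, 5 were analysed, and limma called 2, Csf3r and Jak1, higher against saline in each genotype, a smaller share than among all genes. The median log2 difference of the 5 from saline was 2.42 in wild type (2.71 for all genes) and 2.94 in the knockout (2.80 for all genes). Jak1, a kinase of cytokine receptors, went from 0.79 to 20.95 and 4.37 in wild type and 14.6 and 11.17 in the knockout, and its wild-type difference from saline, 2.60, was −0.06 under quantile normalization. Jak2, the related kinase, was 0.65 in saline, 9.77 and 3.74 in wild type and 3.79 and 7.60 in the knockout, the same order of libraries as Vcam1. Csf2rb, the shared chain of the GM-CSF and interleukin-3 receptors, was 9.89 and 1.69 in wild type and 12.27 and 4.35 in the knockout. It has a near-identical neighbour, Csf2rb2, with which short reads can be shared, so its level is uncertain. Lyn, a Src-family kinase, was 11.2 and 0.50 against 1.32 and 4.21. Csf2rb and Lyn were at 0.01 in saline. No gene of the list was called between genotypes (median −0.15).

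The phagocyte NADPH oxidase was represented by 4 of 7 genes, and limma called 2 of the 4, Rac1 and Rac2, higher against saline in each genotype, near the share among all genes. The median log2 difference was 3.36 in wild type (2.71 for all genes) and 3.15 in the knockout (2.80 for all genes). Rac2, a small GTPase of blood cells that activates the oxidase, was 0.01 in saline, 16.56 and 8.41 in wild type and 17.36 and 8.36 in the knockout. Rac1, its ubiquitous relative, went from 2.04 to 42.12 and 38.77 in wild type and 40.34 and 31.33 in the knockout, the steadiest values of the group.

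Cybb, the membrane-bound catalytic subunit gp91phox, was 0.01 in saline, 11.79 and 4.40 in wild type and 1.66 and 3.25 in the knockout. Both knockout libraries were below both wild-type libraries, as for Lta4h and as in 4.55% of genes tested. The log2 difference of −1.31 had an SE of 1.69, and Cybb was not called in any of the 3 comparisons. Rap1a, a small GTPase that associates with the membrane subunits, was 0.01 in saline, 25.05 and 0.01 in wild type and 1.16 and 19.4 in the knockout. No gene of this list was called between genotypes, and the list's median was −0.08 (0.10 for all genes).

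Among 14 genes for endothelial adhesion, 2 were analysed. Besides Vcam1 this was Cd34, a sialomucin of endothelium and of progenitor cells, called higher against saline in both genotypes. It went from 1.13 to 31.03 and 35.7 in wild type and 48.54 and 22.62 in the knockout. Its log2 difference of 4.01 from saline in each genotype became 1.46 and 1.35 at equal sums and 1.24 and 1.20 under quantile normalization, and was not called under either. On the leukocyte side, 2 of 13 genes were analysed. Selplg, the P-selectin ligand that mediates rolling, went from 0.99 to 35.3 and 46.61 in wild type and 69.51 and 24.37 in the knockout, and was called in both comparisons with saline. Cd44, a hyaluronan receptor, was 1.07 in saline, 15.53 and 6.31 in wild type and 5.22 and 4.42 in the knockout. Both knockout values of Cd44 lay below both wild-type values, as for Lta4h and Cybb and as in 4.55% of genes tested. Limma called Cd44 in wild type against saline and not in the knockout, and its difference between genotypes, −0.92 (SE 0.89), was not called. The Cd44 differences from saline, 2.41 in wild type and 1.49 in the knockout, turned to −0.11 and −1.09 at equal sums and to −0.28 and −1.28 under quantile normalization. For Cd34 and Selplg the order of libraries was alike, with knockout replicate 1 highest and knockout replicate 3 lowest.

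Of 19 genes for neutrophil attractants and their receptors, 1 was analysed. Cxcr4, the receptor for CXCL12, which holds neutrophils in bone marrow, went from 0.51 to 9.89 and 18.63 in wild type and 15.24 and 11.85 in the knockout, and was called in both comparisons with saline. Of 21 neutrophil markers, 2 were analysed, Csf3r and Padi4. Padi4, which citrullinates histones during the release of neutrophil extracellular traps, was 0.01 in saline, 2.89 and 2.05 in wild type and 9.90 and 1.31 in the knockout. It was not called in any comparison. With 2 of 21 markers, the neutrophil content of the libraries was not measured here.

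**Figure D3:**
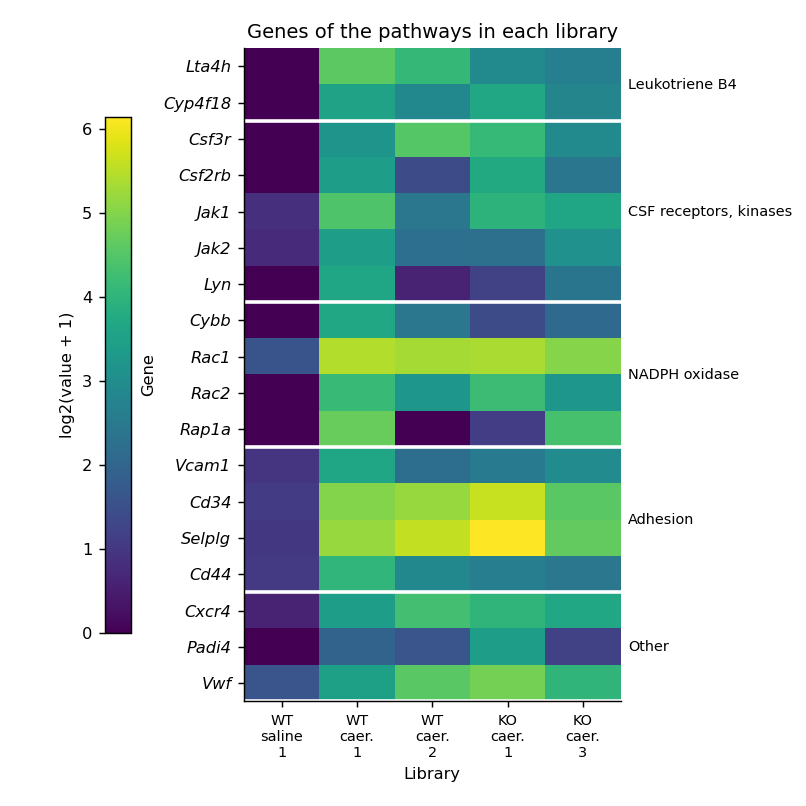
Log2(value + 1), by colour, of the members and the other genes of their pathways (rows, grouped by role) in each library (columns). The saline column is dark throughout, from 0.01 for 9 of the 18 genes to 2.08 for Vwf, and the caerulein columns differ by gene, with Lta4h lighter in both WT libraries and Csf3r in WT 2 and KO 1.

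Marker sums of other cell types are given as deposited, in libraries whose sums of all listed values were also higher after caerulein. With quantile normalization 0 of the 1429 genes tested were called higher against saline in either genotype, so no marker list could hold one. At equal sums 235 of all genes were called higher in wild type and 219 in the knockout. Among them were 4 and 6 of the 7 monocyte and macrophage genes, and 3 of the 5 pan-leukocyte genes in each genotype. So were 3 of the 5 stellate cell and fibroblast markers in each. No acinar, ductal, islet, lymphocyte or endothelial marker was among them. In whole tissue, fewer cells of a type and less RNA per cell cannot be told apart. The summed values of 5 pan-leukocyte genes of 10 listed were 1.28 in saline, where 4 of the 5 were at 0.01. They were 258.68 and 246.83 in wild-type and 298.21 and 217.47 in knockout caerulein libraries, overlapping between genotypes. The sum of 7 monocyte and macrophage genes of 18 listed (3 at 0.01 in saline) was 3.17 in saline, 419.31 and 311.08 in wild type and 388.69 and 363.04 in the knockout. Vwf, the 1 of 14 endothelial markers analysed, was 2.08 in saline, 10.15 and 22.93 in wild type and 27.77 and 15.25 in the knockout, an order unlike that of Vcam1, which was highest in wild-type replicate 1. Its log2 difference from saline, 2.41 in wild type and 2.81 in the knockout, became −0.41 and −0.12 at equal sums, and −0.50 and 0.01 under quantile normalization.

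The stellate and acinar sums varied more between the caerulein libraries than the leukocyte sums did, but a few genes weighed heavily in each sum. Laptm5 is in both leukocyte lists and had the largest value in each, 167.2 and 207.34 in wild type and 213.33 and 180.11 in the knockout. Each other gene of those lists varied more than Laptm5, such as Emr1 (57.43 and 9.27 in wild type, 31.76 and 30.54 in the knockout). Col3a1 was the largest stellate value in each caerulein library (525.1 and 50.15 in wild type, 73.25 and 271.09 in the knockout). Klk1 (562.8) and Prss3 (384.9) held most of the acinar sum in wild-type replicate 1. Single genes did not all keep the contrast between sums. Mrc1, of macrophages, ran from 2.94 to 41.08 and Pdgfrb, of stellate cells, from 4.94 to 13.53. For 5 of 12 stellate cell and fibroblast markers (2 at 0.01 in saline) the sum was 1.72 in saline, 704.44 and 95.57 in wild type and 139.72 and 322.27 in the knockout. For 4 of 22 acinar markers (1 at 0.01 in saline) it was 11.26 in saline, 983.43 and 38.5 in wild type and 314.97 and 636.2 in the knockout. The other lists were thinner: 1 of 10 ductal and simple epithelial, 2 of 11 islet and 1 of 11 lymphocyte markers. Krt8, a simple epithelial keratin and not a marker of ducts alone, was 7.78 in saline, 352.53 and 142.86 in wild type and 244.99 and 283.62 in the knockout. The stellate and acinar sums and Krt8 all stood in the order of libraries of Vcam1, which was also that of the sums of all listed values. The islet sum was 25.91 in saline and 9.74 to 41.96 after caerulein, and Cd79a, of B cells, was 8.8 and 0.48 to 39.74. The part of these cell types in the values of the members was not tested.

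For each member the 5 genes most alike over the 5 libraries were found from the root mean square (RMS) difference of log2(value + 1), centred on each gene's own mean. Lta4h was nearest to Thbs1, a secreted matrix glycoprotein, with an RMS difference of 0.214. Thbs1 was 0.01 in saline, 25.41 and 12.55 in wild type and 8.51 and 5.34 in the knockout. Dock2, a leukocyte activator of Rac needed for neutrophil migration, followed at 0.338, with 11.14 and 8.74 against 3.87 and 3.31. Pxdn, Lama5, a laminin chain, and Lrrc16a, an actin regulator, completed the 5 at 0.349 to 0.366. All 5 shared with Lta4h a listed value of 0.01 in saline and lower values in both knockout libraries than in either wild-type library, which is how likeness to this pattern was scored.

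Csf3r was nearest to Pot1b, a telomere-binding protein, at 0.122, which was 0.39 in saline, 9.54 and 31.54 in wild type and 19.79 and 9.76 in the knockout. Mrpl22, of the mitochondrial ribosome, Hnrnph2, a splicing regulator, Acsf2 and Snapc2, of small nuclear RNA transcription, followed at 0.140 to 0.170. None of these 5 is in the lists of neutrophil or other leukocyte genes. Those lists hold few of the 1429 genes tested (2 neutrophil, 7 monocyte and macrophage, 5 pan-leukocyte), so nothing is read from that absence. Vcam1 was nearest to Dpysl3, at 0.087, with 1.32 in saline, 13.35 and 4.33 in wild type and 5.36 and 9.27 in the knockout. Mdm4, a p53 regulator, Ctps, of cytidine nucleotide synthesis, Rp2h and Jak2 followed at 0.1 to 0.157.

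No member was among the genes nearest to another member. Those genes were picked by the same score, so any gene outside them is less alike by the choice itself. The RMS difference was 0.849 between Lta4h and Csf3r, 0.977 between Lta4h and Vcam1 and 1.228 between Csf3r and Vcam1. Vcam1 was the 709th nearest gene to Lta4h, and Csf3r the 401st. By the values given above, the 3 genes also stood in 3 different orders among the caerulein libraries. The RMS difference reflects the size of changes and the saline value as well as that order. The likeness rests on 5 libraries that share treatment and sums, and is a description.

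**Figure D4:**
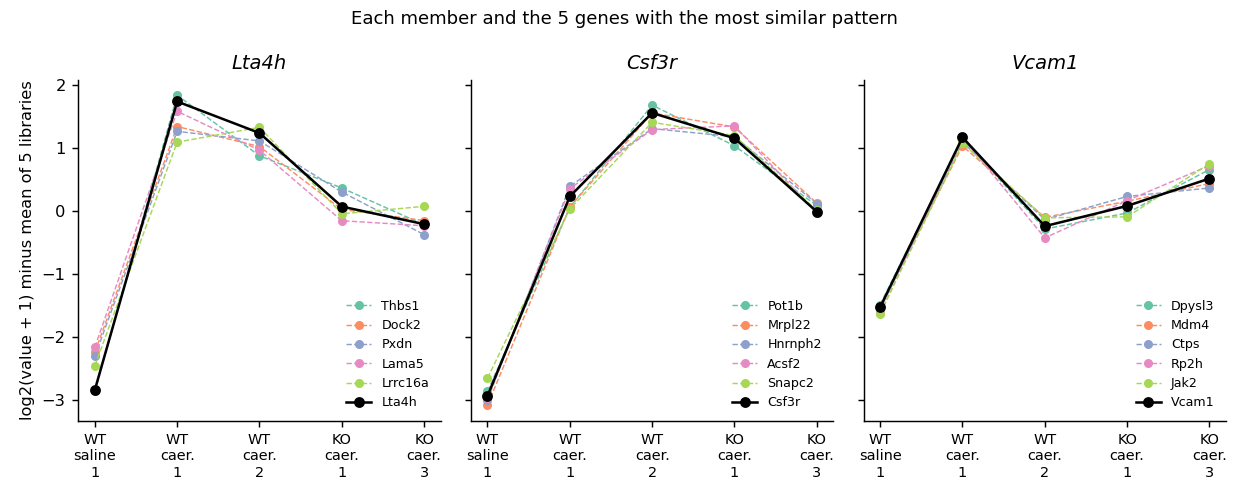
Log2(value + 1) minus the mean of the 5 libraries (vertical axis) in each library (horizontal axis) for each member (black) and the 5 genes most like it (colours, dashed). Lta4h and its neighbours are higher in both WT caerulein libraries than in the KO, Csf3r and its neighbours peak in WT 2 and KO 1, and Vcam1 and its neighbours in WT 1, with RMS differences from 0.087 to 0.366.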

How the data were processed

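Poly(A) RNA from whole pancreas was fragmented, reverse transcribed with random primers and sequenced on an Illumina instrument, per the labels' protocols. Per the submitters' processing notes, Bowtie 0.12.2 and build mm8 were used; for annotation, quantification and scaling the method is not given in the sources used here. Each deposited table holds 1 signal value per gene symbol and library, whose unit and depth are unknown, so no counting interval is given.

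The 5 files hold the same 1457 genes, plus 1 blank row each, which was left out. Values were joined by symbol, filtered at 1 in at least 2 libraries (1429 genes) and analysed as log2(value + 1) without rescaling. Limma 3.58.1 in R 4.3.3 was fitted across all genes with 1 mean per group, a trended, robust empirical Bayes variance and Benjamini-Hochberg adjustment at 0.05. Residual spread comes from the caerulein groups, and the saline library is assumed to vary likewise. The fit was checked on simulated data. Alternatives were 3 rescalings, a pseudocount of 0.1, no filter, a filter at 5, no robustness, only the 2 groups compared, and each caerulein library left out.

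The members and gene lists were chosen with earlier results of these data known. Genes named are the members, up to 12 genes a list, fewer for other cell types, and the 5 genes most like each member. List symbols were matched through RefSeq synonyms. Of the oxidase list, 1 gene is not reported here, and that list's counts and median are given without it. The microRNA seed search was added after seeing the data. Sequences are from RefSeq (GRCm38.p6) and 3' UTRs from GENCODE M21; no coordinates of mm8 are given. Python 3.11.15 was used for summaries.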

Additional observations from a re-analysis of the deposited data

How the results depend on the processing

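The Lta4h difference between genotypes, −1.56, was −1.63 under each of the 3 rescalings and −1.7 with a pseudocount of 0.1. These moves were smaller than its replicate SD (0.29 on the log2 scale). Leaving out a library gave −1.81 to −1.31. In groups of 2 such a move cannot exceed the replicate SD for any gene, so it does not measure steadiness. Quantile normalization and equal sums (without the 20 most abundant genes) scale the saline library towards the others. They took the median log2 difference of all genes from 2.71 to 0.07 and 0.82 in wild type, and from 2.80 to 0.08 and 0.85 in the knockout. Under quantile normalization the wild-type differences from saline were 1.85 for Lta4h, 1.17 for Csf3r and −0.68 for Vcam1, and the knockout differences 0.22, 0.89 and −0.92. Equal sums gave Lta4h 4.03 and 2.40 and Vcam1 −0.42 and −0.66, in wild type and knockout. A pseudocount of 0.1 gave 7.47 and 5.77 for Lta4h and 6.93 and 6.58 for Csf3r. With a library left out, Csf3r between genotypes ranged from −0.99 to 0.34 and Vcam1 from −0.87 to 0.54, the sign turning without wild-type replicate 2 or knockout replicate 3 for Csf3r and without wild-type or knockout replicate 1 for Vcam1.

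In wild type against saline 819 genes were called, all higher. Quantile normalization called 9, of which 0 were higher and 9 lower, equal sums 267 (235 higher, 32 lower), and a fit of the 2 groups alone 440. Over the libraries left out the number called ran from 377 to 1080, with 377 without knockout replicate 1, 509 without knockout replicate 3 and 511 without wild-type replicate 1. In the knockout 863 were called (861 higher, 2 lower), against 6 under quantile normalization (0 higher, 6 lower) and 241 at equal sums (219 higher, 22 lower), with a range of 29 to 1028 over libraries left out. Leaving out knockout replicate 1 gave the 29, and leaving out knockout replicate 3 gave 399. Between genotypes the 0 genes called became 4 without wild-type replicate 1 (range 0 to 4 over libraries left out); none of the 3 members was among the called genes under any setting run. Where a group was cut to 1 library, its spread was taken from the remaining pair. No paired analysis was run. The groups share only replicate number 1, and a shared number was not taken to mark a pair.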
